A study of Mus musculus with 4 samples.

Results

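The genes described here encode the constitutive proteasome, its regulatory cap and its activators. They were taken from the deposited count table by symbol, as Psma, Psmb, Psmc, Psmd or Psme followed by a number, without Psmb8, Psmb9 and Psmb10, the catalytic subunits of the immunoproteasome. This gave 40 of the 21878 genes in the table. They comprised 8 alpha and 8 beta genes of the core particle, 6 ATPase genes (Psmc) and 11 other genes of the cap, 3 genes of chaperones that assemble the cap (Psmd5, Psmd9 and Psmd10) and 4 activator genes (Psme1 to Psme4). The study used RNA sequencing to compare bone marrow-derived macrophages of wildtype mice (WT) with those of anti-Act1 mice, in which the adaptor protein Act1, a mediator of IL-17 receptor signalling, is knocked down in macrophages. All 4 libraries, 2 per group, came from C57BL/6 mice labelled as 8 weeks old, whose macrophages were grown with M-CSF and cocultured with the mouse colon cancer line MC38, for 48 h by the labels and for a shorter time by the study's figure legend. An insert separated both cell types, so every sample had the tumour cells as neighbours and no group was cultured alone. The methods refer to earlier work for the anti-Act1 mice and name no promoter that drives the knockdown, and they call the 2 libraries of a group biological replicates without saying whether each came from its own mouse. The p-values below therefore measure the spread between these libraries, which may be partly technical.

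The proteasome degrades proteins that carry ubiquitin chains. Its core particle is a barrel of alpha rings, which gate the entrance, and beta rings, a few of whose subunits cut peptide bonds: Psmb5 (chymotrypsin-like), Psmb6 (caspase-like) and Psmb7 (trypsin-like). The cap binds ubiquitinated proteins, removes the ubiquitin and, through its ATPase ring, unfolds the protein and threads it into the core. The activators of the Psme family open the core without ubiquitin or ATP. In macrophages the proteasome also makes the peptides shown on MHC class I, and interferon replaces the catalytic subunits with Psmb8, Psmb9 and Psmb10, which form the immunoproteasome.

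Total counts were 64199075 and 75062945 in the WT-labelled libraries and 61926229 and 55435063 in the anti-Act1-labelled libraries. Levels are given as CPM, in which each count is divided by the TMM-scaled size of its library, and, where genes are compared with each other, as the FPKM values the authors deposited, which also divide by gene length. Traf3ip2, which encodes Act1, stood at 6.98 and 7.54 CPM in the WT-labelled libraries and 9.63 and 7.84 CPM in the anti-Act1-labelled libraries, a log2 difference of 0.27 ± 0.12 (SE, n = 2 per group, edgeR adjusted p = 0.117), so the counts of this gene did not show the knockdown that the labels give, and the groups are called by their labels throughout. The study's own measurement of Act1 in macrophages of these mice was not analysed here. The 4 Y-linked genes listed as a check summed to 228 and 246 CPM in the WT-labelled libraries and to 0.0162 and 0 CPM in the anti-Act1-labelled libraries, so Y-linked expression differed with the label, and sex and genotype cannot be told apart. Macrophage markers (8 of 8 found) summed to 24573 to 26257 CPM, of which Lyz2 made up 15811 to 17736 CPM. Of these 8, Mertk (−0.40) and Itgam (−0.31) were called lower and Cd14 (0.16) higher on the log2 scale. The 10 cell cycle markers summed to 169 to 183 CPM, of which Pcna made up 136 to 146 CPM. Their median log2 difference was −0.22, and Mcm5 and Top2a were called lower. The part of these shifts in the proteasome genes was not tested. Markers of epithelial tumour cells (8 genes) summed to 0.128 to 0.464 CPM, with Krt8, Krt18, Krt20 and Cldn4 at 0 counts in all libraries. The lists of fibroblast, neutrophil, T cell, B cell and dendritic cell markers each summed to at most 31.0 CPM, which was the T cell list in anti-Act1 replicate 2. In bulk RNA, less RNA per cell and fewer cells of a type cannot be told apart.

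Of the 40 genes, 39 had enough counts to pass edgeR's filter and were tested with its two-sided quasi-likelihood F test, with p-values adjusted over all 12494 genes tested. Psmb11, the catalytic subunit of the thymus, had 0 counts in every library, where a count of 0 allows up to 3. The calls (adjusted p under 0.05) were 5 genes, all higher in macrophages labelled anti-Act1: Psmd8 of the cap, Psmd10 of the cap chaperones, Psme2 of the activators, and Psmb5 and Psmb4 of the beta ring. They make up 12.8% of the 39 genes, beside 20.7% called among all genes tested, 10.9% higher and 9.76% lower, so calls were not more frequent among these genes than in the table as a whole. No gene of the 39 was called lower by edgeR or by DESeq2, and 2 had a lower level at an unadjusted edgeR p under 0.05, against 14 with a higher level, beside 15.0% lower and 16.3% higher of all genes tested. DESeq2 called the same 5 genes, beside 16.6% of all genes it gave an adjusted p.

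The differences were small. The median log2 difference (anti-Act1 minus WT) was 0.081 over the 39 genes, with 33 above 0 and 6 below, where 6126 of the 12494 genes tested lay above 0 and the median over all genes tested was −0.0046. The largest was 0.32 (Psmd10), and 80.8% of all genes tested differed by no more than that in either direction. Libraries labelled anti-Act1 lay wholly above those labelled WT for 22 of the 39 genes and wholly below for 3, beside 28.4% and 28.7% of all genes tested. For the 33 uncalled genes other than Psma8 the 95% intervals together ran from −0.24 (Psme4) to 0.30 (Psma5) on the log2 scale, so larger differences than these lie outside the intervals. Permuting 2 against 2 libraries for a gene by itself cannot give an exact p below 0.333, so each test rests on the spread shared across genes. Exons of Psma4, Psma5, Psmb7, Psmc3, Psmd1, Psmd3, Psmd9, Psmd13 and Psme1 overlap those of a gene on the other strand, and since strand-specific counting is not stated, their values may hold reads of that gene. Transcripts of 14 of the 40 genes match processed pseudogenes at 90% identity or more over at least 150 bases (Psma2 to Psma5, Psmb1, Psmb3, Psmb5, Psmb6, Psmc1, Psmd2, Psmd11, Psmd14, Psme1 and Psme2), and their reads may be shared with these copies.

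**Figure D1:**
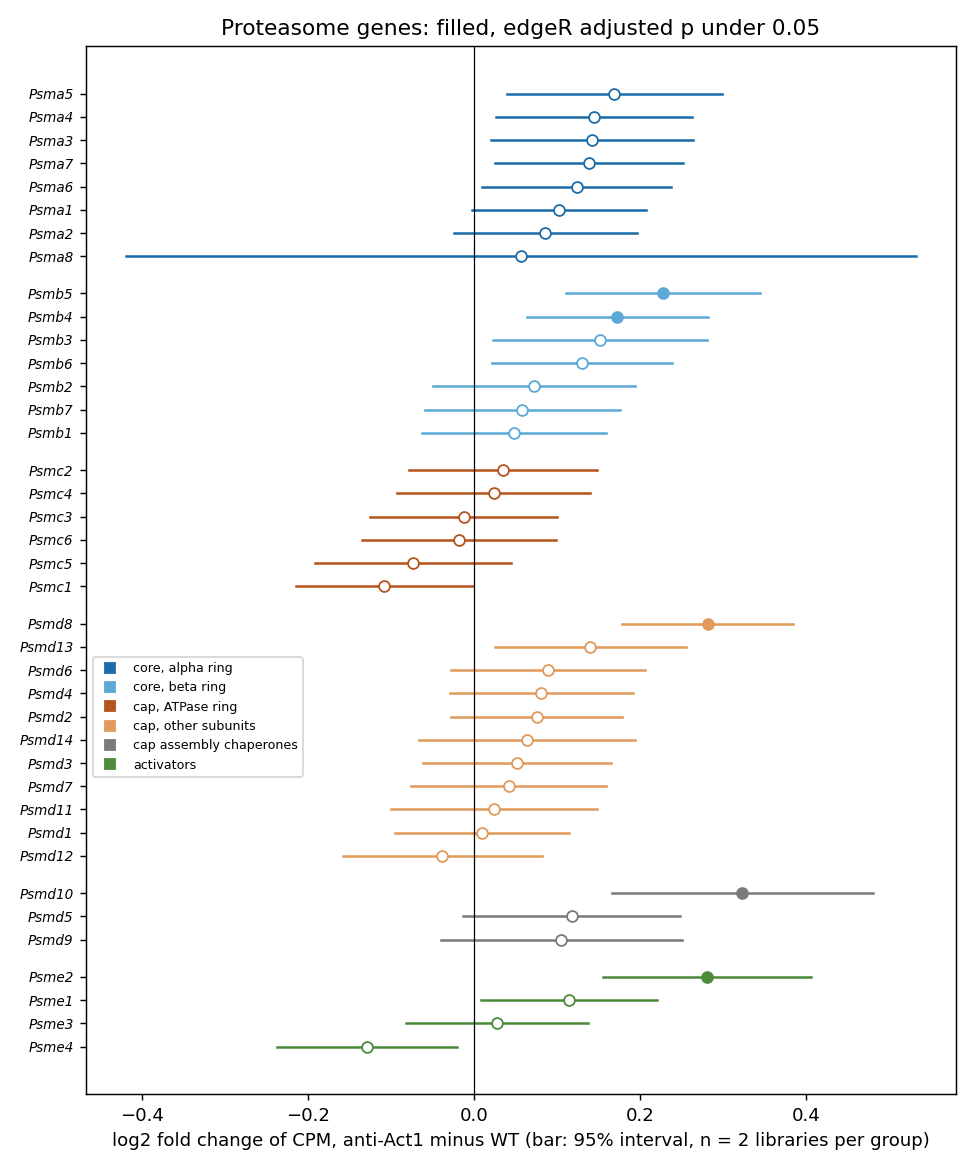
Log2 difference in CPM between macrophages labelled anti-Act1 and WT for the 39 tested proteasome genes, by class, with the 95% interval of the edgeR fit (2 libraries per group) and filled points for the 5 genes with an adjusted p under 0.05. All 15 core genes lie to the right of 0, and 4 of the 6 ATPase genes lie to its left.

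The promoters of 5 genes are shown here: Psmb5, Psmd8 and Psme2, which were called, and the uncalled activators Psme1 and Psme4. The called genes Psmb4 and Psmd10 are not shown. Proteasome genes are known to share control by NFE2L1, which binds antioxidant response elements, while the activators Psme1 and Psme2 are known interferon targets. Each runs from 250 bases before to 50 bases after the start of transcription, 5′ to 3′ on the gene's strand, as given by RefSeq (GRCm38.p6), which matched 33 of the 40 genes (not Psma8, Psmb1, Psmb2, Psmb7, Psmc3, Psmd3 and Psmd7). Capitals mark any of 4 motifs searched on both strands: TGACNNNGC (core of the antioxidant response element), CCAAT (the CCAAT box), TTCNNNGAA (the STAT site GAS) and the core of the interferon-stimulated response element (ISRE), which did not overlap each other in these 5 windows. The windows are chr14:54617946-54618245 on the minus strand for Psmb5, chr7:29180624-29180923 on the minus strand for Psmd8, chr14:55578244-55578543 on the plus strand for Psme1, chr14:55590972-55591271 on the minus strand for Psme2 and chr11:30771525-30771824 on the plus strand for Psme4.
Psmb5 promoter: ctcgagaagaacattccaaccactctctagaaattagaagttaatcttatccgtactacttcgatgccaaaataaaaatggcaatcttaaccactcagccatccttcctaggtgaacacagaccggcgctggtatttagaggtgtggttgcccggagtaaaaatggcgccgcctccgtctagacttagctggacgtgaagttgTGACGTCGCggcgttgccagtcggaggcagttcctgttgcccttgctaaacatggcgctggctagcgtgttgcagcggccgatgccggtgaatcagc
Psmd8 promoter: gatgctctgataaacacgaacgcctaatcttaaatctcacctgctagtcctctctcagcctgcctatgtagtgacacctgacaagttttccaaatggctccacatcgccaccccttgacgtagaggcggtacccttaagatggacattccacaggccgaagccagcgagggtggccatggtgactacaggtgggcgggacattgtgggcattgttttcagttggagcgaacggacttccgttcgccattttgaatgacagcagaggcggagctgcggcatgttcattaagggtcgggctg
Psme1 promoter: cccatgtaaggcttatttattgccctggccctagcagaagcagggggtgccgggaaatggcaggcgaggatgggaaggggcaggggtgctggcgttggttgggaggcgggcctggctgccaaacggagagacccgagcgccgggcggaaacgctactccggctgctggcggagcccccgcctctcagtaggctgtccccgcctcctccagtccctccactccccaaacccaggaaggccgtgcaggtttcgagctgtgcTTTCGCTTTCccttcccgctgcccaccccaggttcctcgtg
Psme2 promoter: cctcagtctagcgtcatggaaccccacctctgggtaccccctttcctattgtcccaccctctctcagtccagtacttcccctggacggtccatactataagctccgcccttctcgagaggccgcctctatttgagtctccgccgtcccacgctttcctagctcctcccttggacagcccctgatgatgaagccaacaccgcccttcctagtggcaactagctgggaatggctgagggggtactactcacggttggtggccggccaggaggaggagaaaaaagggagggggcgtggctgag
Psme4 promoter: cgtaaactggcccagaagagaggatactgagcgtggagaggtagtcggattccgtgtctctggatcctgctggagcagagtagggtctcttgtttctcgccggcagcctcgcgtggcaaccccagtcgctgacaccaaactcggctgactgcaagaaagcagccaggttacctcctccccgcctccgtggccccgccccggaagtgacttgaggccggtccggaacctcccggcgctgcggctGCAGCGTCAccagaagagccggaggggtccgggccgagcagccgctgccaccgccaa

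Psmb5, called higher, holds TGACGTCGC at position −47 from the start. Psme4, which was not called and whose level was nominally lower, holds the same motif on the opposite strand at position −7. Psme1 holds an ISRE core on the opposite strand just after the start, and the windows of Psmd8 and Psme2, both called higher, hold none of the 4 motifs, nor does the window of a further start of Psme2 that is not shown. Of the called genes not shown, Psmd10 holds CCAAT at positions −230, −47 and −24, and Psmb4 holds none of the 4 motifs. Over the 33 genes, the TGACNNNGC motif was found in 6 (18.2%: Psmb5, Psmb6, Psmc6, Psmd9, Psmd12 and Psme4), beside 14.0% of the 27025 genes in the table. CCAAT was found in 13 (39.4%, beside 41.1%), 5 of them alpha genes. The ISRE core was found in 4 (12.1%: Psmb3, Psmd4, Psmd9 and Psme1, beside 3.99%) and TTCNNNGAA in 1 (3.03%: Psmd2, beside 9.55%). These matches describe letters in a window and were not tested.

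Of the 15 tested core genes, 2 were called, 13.3% of them beside 10.9% called higher among all genes tested, and no test of the class was run. All 15 tested core genes had a log2 difference above 0, from 0.048 (Psmb1) to 0.23 (Psmb5) with a median of 0.13, and both calls were in the beta ring. In the alpha ring, whose subunits form the gate of the core, 0 of 8 genes were called by edgeR or DESeq2, beside 20.7% and 16.6% of all genes. Of the 8, 5 had an unadjusted edgeR p under 0.05, all higher, where 16.3% of all genes tested did. The highest of them was Psma5, at 47.5 and 42.1 CPM in the WT-labelled libraries and 48.8 and 51.9 CPM in the anti-Act1-labelled libraries, a log2 difference of 0.17 ± 0.064 (SE, n = 2 per group, edgeR adjusted p = 0.0550). Its anti-Act1-labelled libraries lay above both WT-labelled libraries, but WT replicate 2 was lower than WT replicate 1 by more than the latter differed from anti-Act1 replicate 1. Psma5 was called without WT replicate 1, at 0.26 (edgeR adjusted p = 0.00401), and without WT replicate 2 it stood at 0.083 (edgeR adjusted p = 0.524). The lowest was Psma8, the alpha subunit of the testis, which is almost silent here: its counts were 125, 117, 116 and 94, and its log2 difference was 0.056 ± 0.24 (SE, n = 2 per group, edgeR adjusted p = 0.907) with a 95% interval from −0.42 to 0.53. The alpha median was 0.13.

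In the beta ring 2 of 7 tested genes were called (28.6%, beside 10.9% called higher among all genes tested), and the median was 0.13. With so few genes the share was not tested. Psmb5, the chymotrypsin-like subunit, was measured at 78.3 and 71.1 CPM in the WT-labelled libraries and 90.5 and 84.5 CPM in the anti-Act1-labelled libraries. Both anti-Act1-labelled libraries were above both WT-labelled libraries, and the gene rose by 17.1%, a log2 difference of 0.23 ± 0.058 (SE, n = 2 per group, edgeR adjusted p = 0.00275). Psmb4, a subunit of the ring without catalytic activity, was measured at 103 and 95.8 CPM in the WT-labelled libraries and 112 and 113 CPM in the anti-Act1-labelled libraries, again without overlap, and rose by 12.7%, a log2 difference of 0.17 ± 0.054 (SE, n = 2 per group, edgeR adjusted p = 0.0173). Neither gene was called without WT replicate 2, where Psmb5 stood at 0.16 and Psmb4 at 0.12. Nor was either called without anti-Act1 replicate 1, where both genes stood at 0.18. Psmb4 also lost its call without anti-Act1 replicate 2, at 0.17. Such a fit leaves a group with 1 library. Without either anti-Act1 library Psmb4 stayed close to its value in the full fit. The transcript of Psmb5 matches the processed pseudogene Gm3375 at 98.9% identity over 796 bases, so reads may be shared between them.

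The other catalytic subunits were not called. Psmb6, the caspase-like subunit and the most abundant core gene, was measured at 166 and 152 CPM in the WT-labelled libraries and 179 and 169 CPM in the anti-Act1-labelled libraries, a log2 difference of 0.13 ± 0.054 (SE, n = 2 per group, edgeR adjusted p = 0.0827), with a 95% interval from 0.021 to 0.24. Leaving out WT replicate 1 brought it to 0.20 (edgeR adjusted p = 0.00878), and leaving out WT replicate 2 to 0.064 (edgeR adjusted p = 0.559). Psmb7, the trypsin-like subunit, was measured at 64.2 and 60.5 CPM in the WT-labelled libraries and 65.5 and 64.2 CPM in the anti-Act1-labelled libraries, a log2 difference of 0.058 ± 0.058 (SE, n = 2 per group, edgeR adjusted p = 0.554), with a 95% interval from −0.060 to 0.18. The groups touched closely for Psmb7, where the lower anti-Act1 library exceeded the higher WT library by less than the WT-labelled libraries differed. Psmb1, the lowest of the class, had a log2 difference of 0.048 ± 0.055 (SE, n = 2 per group, edgeR adjusted p = 0.609) and overlapping groups, at 108 and 99.9 CPM in the WT-labelled libraries and 105 and 110.5 CPM in the anti-Act1-labelled libraries.

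The values of the core stand beside the difference between the WT replicates. In the same 15 core genes, WT replicate 2 differed from WT replicate 1 by a median log2 of −0.11, close in size to the median difference between the groups, while the anti-Act1 replicates differed by 0.015. Without WT replicate 1, Psma5, Psma6, Psma7, Psmb3 and Psmb6 of the core were called as well. Without WT replicate 2 only Psmd8, Psmd10 and Psme2 were called. Without anti-Act1 replicate 1 only Psmd8 and Psmd10 were, and without anti-Act1 replicate 2 Psma4 took the place of Psmb4. Psmd8 and Psmd10 were thus called whichever library was left out. Each of these fits leaves a group with 1 library, and each called a smaller share of all genes tested than the full fit.

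**Figure D2:**
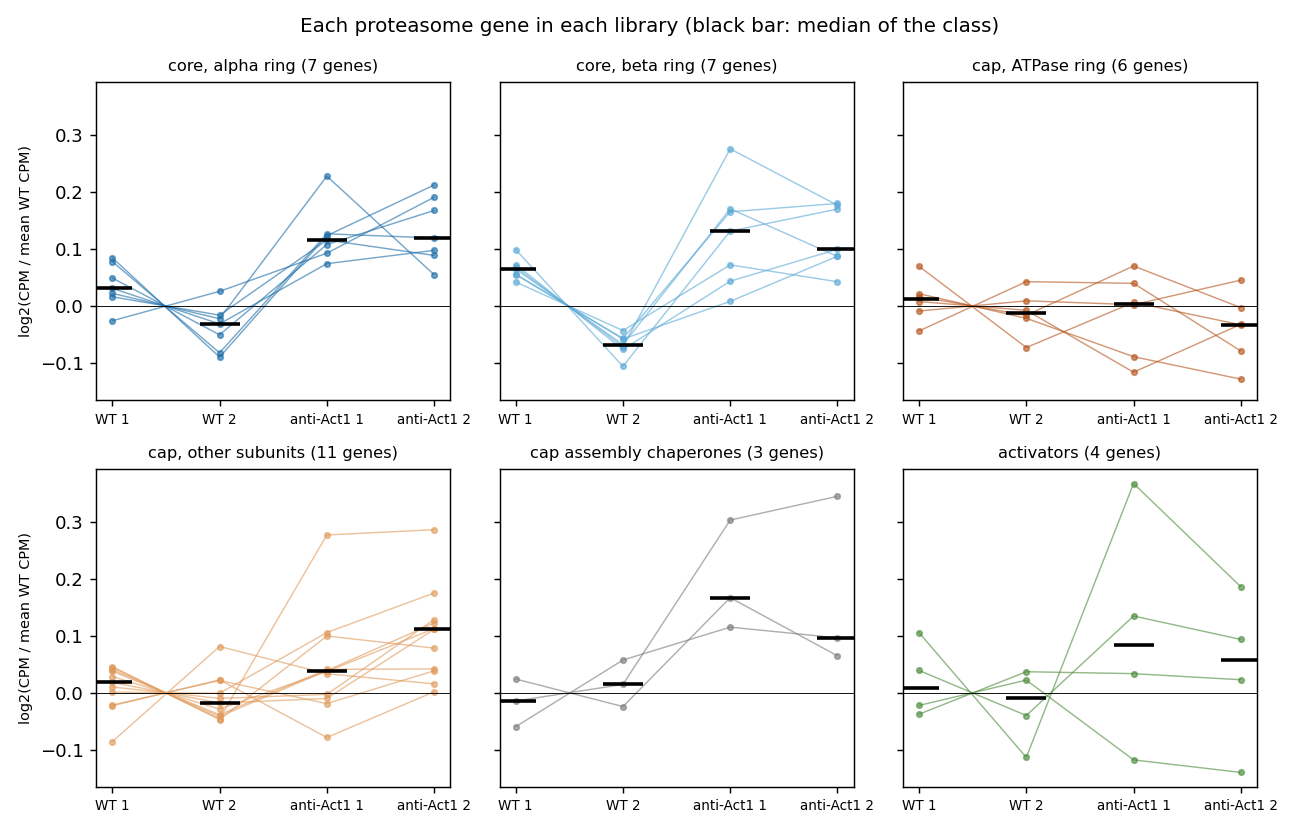
Log2 ratio of each gene's CPM to its mean in WT, in each of the 4 libraries, in a panel per class (Psma8 and Psmb11 not drawn). Each line joins the 4 values of a gene and the black bars mark the class median. In the core panels the median of WT replicate 2 lies below that of WT replicate 1, and the medians of the anti-Act1 replicates lie above both. In the ATPase panel the medians of the anti-Act1 replicates lie below that of WT replicate 1.

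The ATPase genes of the cap were centred near 0. Of its 6 genes, 2 had a log2 difference above 0 and 4 below, with a median of −0.016. The range was from −0.11 (Psmc1) to 0.034 (Psmc2). By edgeR and by DESeq2 0 of 6 were called, beside 20.7% and 16.6% of all genes. Of the 6, 1, Psmc1, had an unadjusted edgeR p under 0.05, lower, where 15.0% of all genes tested did. Psmc1, an ATPase whose tail helps to open the gate of the core, was measured at 118 and 115 CPM in the WT-labelled libraries and 109 and 107 CPM in the anti-Act1-labelled libraries. Both anti-Act1-labelled libraries were below both WT-labelled libraries, with a log2 difference of −0.11 ± 0.053 (SE, n = 2 per group, edgeR adjusted p = 0.153) and a 95% interval from −0.22 to −0.0015. Psmc2 overlapped between the groups, at 76.3 and 74.6 CPM in the WT-labelled libraries and 79.2 and 75.3 CPM in the anti-Act1-labelled libraries, with a log2 difference of 0.034 ± 0.056 (SE, n = 2 per group, edgeR adjusted p = 0.736).

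Among the 11 other subunits of the cap, which bind ubiquitin chains, remove ubiquitin and hold the lid and base together, 10 had a log2 difference above 0 and the median was 0.063. The called gene was Psmd8, a subunit of the lid, which was measured at 259 and 243 CPM in the WT-labelled libraries and 304 and 306 CPM in the anti-Act1-labelled libraries. The anti-Act1-labelled libraries were nearly equal and clearly above both WT-labelled libraries. Psmd8 rose by 21.5%, a log2 difference of 0.28 ± 0.051 (SE, n = 2 per group, edgeR adjusted p = 3.16e-05), and it kept its call under all 14 alternatives tried, with a log2 difference of 0.24 without WT replicate 2. The next highest was Psmd13 at 0.14 (edgeR adjusted p = 0.0779), and the lowest was Psmd12, a lid subunit, at 57.2 and 59.0 CPM in the WT-labelled libraries and 55.0 and 58.2 CPM in the anti-Act1-labelled libraries, with overlapping groups and a log2 difference of −0.039 ± 0.060 (SE, n = 2 per group, edgeR adjusted p = 0.721). The ubiquitin receptor Psmd4 stood at 0.081 (edgeR adjusted p = 0.334), and the deubiquitinase Psmd14 stood at 0.063 (edgeR adjusted p = 0.559). Over the 17 genes of the cap, ATPases included, the median was 0.034, against 0.13 in the core, a difference between classes that was not tested.

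The 3 chaperones of cap assembly had log2 differences from 0.10 to 0.32. Psmd10 (gankyrin), which holds the ATPase Psmc4 during assembly, was measured at 17.9 and 18.3 CPM in the WT-labelled libraries and 22.3 and 23.0 CPM in the anti-Act1-labelled libraries. The libraries within each group were close and the groups were well apart. Psmd10 rose by 25.1%, a log2 difference of 0.32 ± 0.078 (SE, n = 2 per group, edgeR adjusted p = 0.00158), and was also called under all 14 alternatives, with log2 differences of 0.30 to 0.35 when a library was left out. It is the only one of the 40 genes on the X chromosome, and the groups differed in their Y-linked genes, so for this gene too sex and genotype cannot be told apart. Psmd9 was the lowest of the 3, at 24.6 and 26.7 CPM in the WT-labelled libraries and 27.8 and 27.4 CPM in the anti-Act1-labelled libraries and a log2 difference of 0.10 ± 0.072 (SE, n = 2 per group, edgeR adjusted p = 0.343), and leaving out WT replicate 1 or 2 moved it to 0.047 or 0.16. Psmd5 stood between them at 0.12 (edgeR adjusted p = 0.216).

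Of the 4 activators, Psme2 was called and the other three were not. Psme1 and Psme2 encode the alpha and beta subunits of PA28, the ring that opens the core in cells exposed to interferon. Psme2 was measured at 86.3 and 74.1 CPM in the WT-labelled libraries and 103 and 91.2 CPM in the anti-Act1-labelled libraries, without overlap, although anti-Act1 replicate 2 was only slightly above WT replicate 1. Psme2 rose by 21.5%, a log2 difference of 0.28 ± 0.062 (SE, n = 2 per group, edgeR adjusted p = 5.49e-04), which was 0.19 (edgeR adjusted p = 0.0951) without anti-Act1 replicate 1, 0.39 without WT replicate 1 and 0.17 without WT replicate 2. Its value is uncertain because its transcript matches that of Psme2b at 99.4% identity over 794 bases (82.5% of its length). Psme2b was itself measured at 36.1 and 31.4 CPM in the WT-labelled libraries and 40.9 and 39.6 CPM in the anti-Act1-labelled libraries, a log2 difference of 0.26 ± 0.068 (SE, n = 2 per group, edgeR adjusted p = 0.00408). Psme1, the partner of Psme2 in the ring, was measured at 132 and 125 CPM in the WT-labelled libraries and 141 and 137 CPM in the anti-Act1-labelled libraries, a log2 difference of 0.11 ± 0.053 (SE, n = 2 per group, edgeR adjusted p = 0.125) with a 95% interval from 0.0080 to 0.22.

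Psme3, which forms a PA28 ring in the nucleus, overlapped between the groups at 91.9 and 96.7 CPM in the WT-labelled libraries and 96.5 and 95.8 CPM in the anti-Act1-labelled libraries, a log2 difference of 0.028 ± 0.054 (SE, n = 2 per group, edgeR adjusted p = 0.783). Psme4 (PA200), a single-chain nuclear activator, had the lowest log2 difference of the 39 genes. It was measured at 103 and 107 CPM in the WT-labelled libraries and 96.8 and 95.3 CPM in the anti-Act1-labelled libraries, with both anti-Act1-labelled libraries below both WT-labelled libraries, and its log2 difference was −0.13 ± 0.054 (SE, n = 2 per group, edgeR adjusted p = 0.0842) with a 95% interval from −0.24 to −0.021. When library totals alone were used without TMM, it was called lower at −0.15 (edgeR adjusted p = 0.0402). The median of the 4 activators was 0.071.

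Levels per gene length differed far more between the genes than between the groups. By mean FPKM over the 4 libraries the most abundant was Psmd8 (183), followed by Psmb6 (161), Psme1 (137), Psma1 (117), Psmd2 (112), Psmb4 (112) and Psme2 (105). Psma1, Psmd2 and Psmb4 spanned 113 to 122, 108 to 116 and 102 to 117 FPKM in the 4 libraries, so their order is not resolved. The least abundant genes with FPKM above 0 were Psme4 (17.7), Psmd10 (14.4), Psmd9 (10.3) and Psma8 (1.05). The beta ring had the highest class median at 93.0 FPKM, then the activators (70.9), the alpha ring (66.2), the ATPases (48.5), the other cap subunits (43.1) and the cap chaperones (14.4), beside 8.50 FPKM over all genes tested. The cap chaperones, which are not part of the finished particle, thus stood below the other 5 classes.

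**Figure D3:**
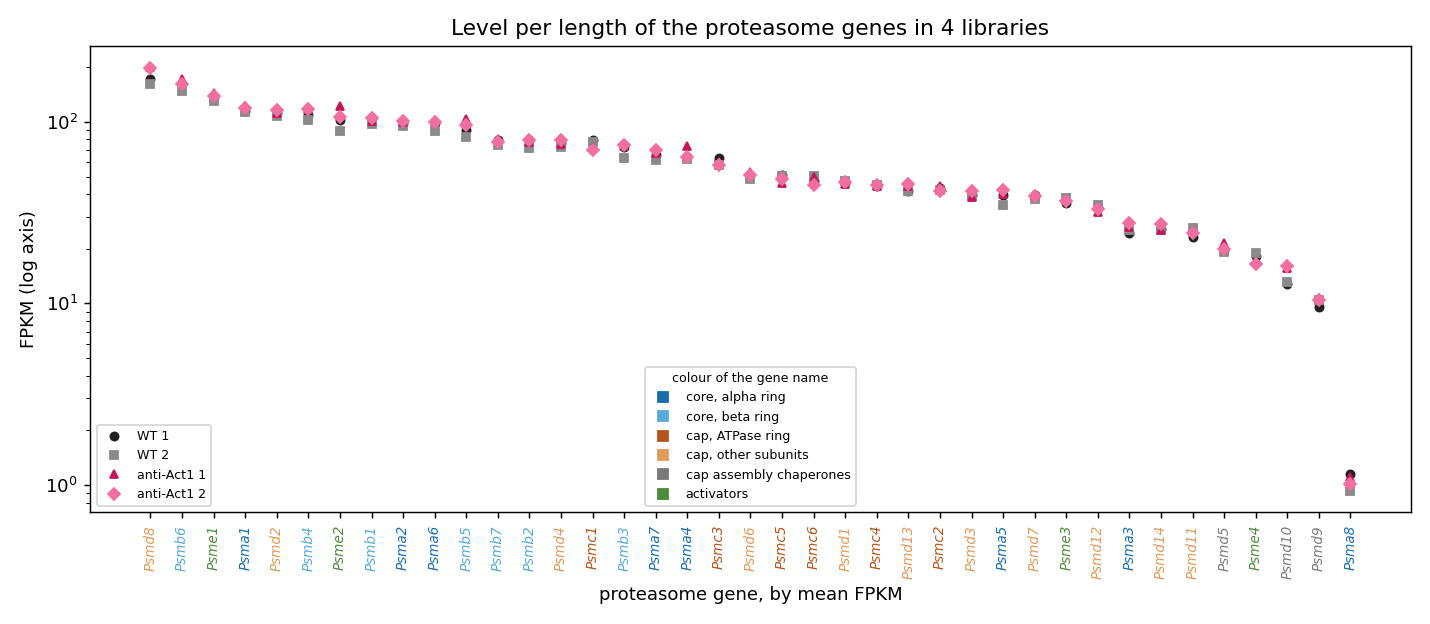
Deposited FPKM of each proteasome gene (log axis) in the 2 libraries labelled WT and 2 labelled anti-Act1, ordered by mean FPKM, with gene names coloured by class (Psmb11, at 0, not drawn). Levels run from Psmd8 at the top to Psma8 at about 1 FPKM, and the 4 libraries of a gene nearly coincide on this scale.

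Summed FPKM gave a view of the balance of core and cap within each library. The core genes summed to 1.22 and 1.16 times the cap genes in the WT-labelled libraries and to 1.25 and 1.22 times in the anti-Act1-labelled libraries, and at more digits anti-Act1 replicate 2 exceeded WT replicate 1 by less than the replicates of either group differed. Against the ATPases alone the core summed to 3.68 and 3.47 times in WT and to 3.97 and 4.01 times in the anti-Act1-labelled libraries, without overlap. No test was run on these sums.

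The constitutive catalytic subunits were then set against the immunoproteasome subunits that replace them, as the constitutive share of the FPKM of each pair. Psmb6 held 71.7% and 71.8% in the WT-labelled libraries and 69.7% and 68.3% in the anti-Act1-labelled libraries of its pair with Psmb9. The anti-Act1-labelled libraries were lower: the mean fell by 2.78 percentage points, and it fell by 2.11 to 3.45 when a library was left out. Psmb7 held 60.5% and 60.8% in the WT-labelled libraries and 60.3% and 60.0% in the anti-Act1-labelled libraries of its pair with Psmb10, and the groups nearly met. Psmb5 held 40.5% and 39.9% in the WT-labelled libraries and 40.2% and 36.5% in the anti-Act1-labelled libraries of its pair with Psmb8, with overlapping groups, since anti-Act1 replicate 2 alone was low. Without that library the difference for Psmb5 was 0.0518 percentage points. Psmb8 and Psmb9 themselves rose, with log2 differences of 0.34 ± 0.054 (SE, n = 2 per group, edgeR adjusted p = 3.14e-06) and 0.32 ± 0.060 (SE, n = 2 per group, edgeR adjusted p = 4.70e-05), and Psmb10 stood at 0.086 ± 0.057 (SE, n = 2 per group, edgeR adjusted p = 0.328). These shares were not tested, and exons of Psmb9 overlap those of Tap1 on the other strand.

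**Figure D4:**
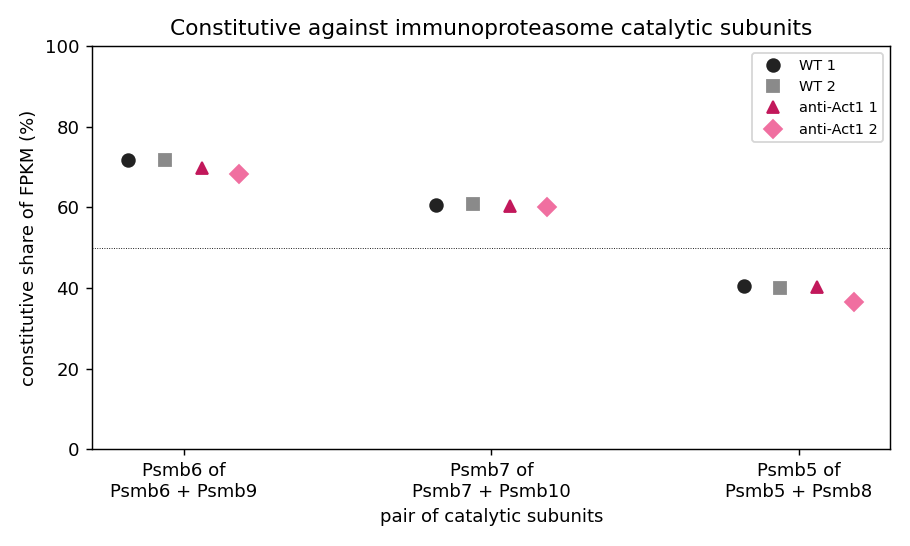
Share of FPKM held by the constitutive catalytic subunit in its pair with the immunoproteasome subunit that replaces it (percent, axis from 0 to 100), in the 2 libraries labelled WT and 2 labelled anti-Act1. Psmb6 and Psmb7 hold more than 50% of their pairs in all libraries, and Psmb5 holds less than 50% in all.

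Gene length moved with these results. The core genes were short, with a median length of 1036 bases, against 1533 for the ATPases and 1564 for the whole cap, and the genes of the table differed between the groups by length: the median log2 difference was 0.072 over the 857 tested genes shorter than 1000 bases, 0.037 over the 2900 of 1000 to 2000 bases, −0.0072 over the 5225 of 2000 to 4000 bases and −0.050 over the 3509 of 4000 bases or more. The WT replicates differed by length too: the median log2 of WT replicate 2 minus WT replicate 1 was −0.11 for the shortest genes and 0.046 for the longest. The sign of these values depends on which replicate is subtracted. The length trend of the difference between the groups was then fitted and removed in the edgeR fit. The length difference between the WT replicates was left in. The core median was then 0.053 and the ATPase median −0.066, so both moved down. Psmb5 then stood at 0.15 (edgeR adjusted p = 0.0671), Psmb4 at 0.092 (edgeR adjusted p = 0.263) and Psmc1 at −0.16 (edgeR adjusted p = 0.0233), so the calls of Psmb5 and Psmb4 were lost and Psmc1 was called lower. Psmd8, Psmd10 and Psme2 kept their calls. The part of length in the differences of the core was not tested further.

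**Figure D5:**
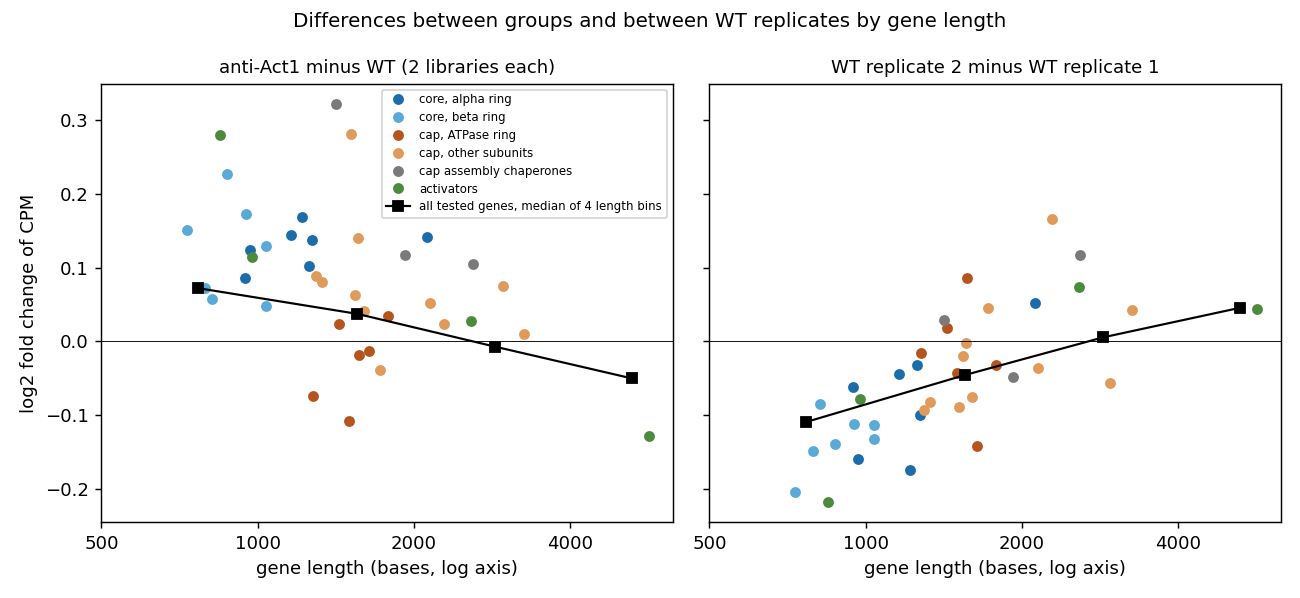
Log2 difference of CPM against gene length (bases, log axis) for the proteasome genes, between the groups on the left and between the WT replicates on the right, with black squares for the median of all tested genes in 4 length bins (Psma8 not drawn). The medians of all genes fall with length on the left and rise with length on the right, where WT replicate 1 is subtracted from WT replicate 2. The core genes are short. Their median is 0.13 on the left, above the 0.072 and 0.037 of all tested genes under 1000 and of 1000 to 2000 bases. On the right it is −0.11, beside −0.11 and −0.046.

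Of the genes that build, regulate or work beside the proteasome, 5 lists with 52 genes found gave 51 tested, of which 7 were called higher and 5 lower (23.5%, near the 20.7% of all genes tested), with a median log2 difference of 0.032. Of the 6 core assembly chaperones and the inhibitor (Psmg1 to Psmg4, Pomp and Psmf1), edgeR and DESeq2 called 0, and 0 had an unadjusted edgeR p under 0.05. Of 14 proteins that bind or import the proteasome, 2 were called, both lower. Akirin2, which brings proteasomes into the nucleus, was measured at 41.9 and 35.1 CPM in the WT-labelled libraries and 32.5 and 30.3 CPM in the anti-Act1-labelled libraries, a log2 difference of −0.29 ± 0.072 (SE, n = 2 per group, edgeR adjusted p = 0.00193). Ipo9, the importin it works with, differed by −0.18 ± 0.061 (SE, n = 2 per group, edgeR adjusted p = 0.0238), a call that DESeq2 did not make (adjusted p = 0.0576). In the list of 11 ubiquitin and p97 genes, the ubiquitin gene Ubb was measured at 995 and 945 CPM in the WT-labelled libraries and 1034 and 1155 CPM in the anti-Act1-labelled libraries and rose with a log2 difference of 0.17 ± 0.052 (SE, n = 2 per group, edgeR adjusted p = 0.0122).

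The NFE2L1 pathway drives proteasome genes when the proteasome is overloaded, and 5 of its 12 tested genes were called, 3 higher and 2 lower, beside 20.7% called among all genes tested. DESeq2 called 4 of them. Nfe2l1, the transcription factor itself, was measured at 245 and 246 CPM in the WT-labelled libraries and 281 and 279.7 CPM in the anti-Act1-labelled libraries. The libraries of each group nearly coincided, and Nfe2l1 rose with a log2 difference of 0.19 ± 0.050 (SE, n = 2 per group, edgeR adjusted p = 0.00425). Its small Maf partners Maff and Mafg rose with log2 differences of 1.11 ± 0.084 (SE, n = 2 per group, edgeR adjusted p = 9.21e-15) and 0.18 ± 0.053 (SE, n = 2 per group, edgeR adjusted p = 0.0103). Bach1, a repressor at the same elements, fell, at −0.16 ± 0.052 (SE, n = 2 per group, edgeR adjusted p = 0.0196), and so did Ddi2, the protease that cuts NFE2L1 into its active form, at −0.22 ± 0.072 (SE, n = 2 per group, edgeR adjusted p = 0.0220), though not by DESeq2 (adjusted p = 0.0833). The direction of the pathway as a whole was not tested. In the list of 8 interferon regulators, the receptor chain Ifnar2 rose with a log2 difference of 0.22 ± 0.051 (SE, n = 2 per group, edgeR adjusted p = 0.00108), and Ifngr1, a chain of the interferon gamma receptor, fell, at −0.15 ± 0.050 (SE, n = 2 per group, edgeR adjusted p = 0.0230).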

How the data were processed

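RNA of macrophages from 2 WT and 2 anti-Act1 samples was sequenced as paired reads from libraries made with the NEBNext Ultra kit. Per the methods, the authors removed adapter and low-quality reads and aligned the rest with TopHat. The submitters' processing notes name Bowtie 0.12.2, HTSeq 0.6.1 and the builds mm8 and mm10 without roles, and whether strand was used is not given in the sources used here. The authors deposited whole-number counts per gene without normalization, and FPKM values. The deposited FPKM equalled the counts divided by a gene length and the library total (10308 genes compared, tolerance 0.001), which gave the gene lengths. The tables were joined by symbol.

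Groups came from the labels. Counts were fitted with edgeR 4.0.16 in R 4.3.3 (TMM, filterByExpr, condition only, quasi-likelihood F test, Benjamini-Hochberg adjustment over 12494 genes). Standard errors and 95% intervals come from that fit. The members, their classes and the other lists were chosen with earlier results of these data known. Full values are given for called members, Psmb5 to Psmb7, Psme1 to Psme4 and the highest and lowest member of each class, and for called genes of the other lists, of which Ddi2, beyond the 4 smallest p-values of its list, and Psmd4, Psmd5, Psmd13 and Psmd14 were named after their values were seen. Some called genes of the other lists are left out of the text. Alternatives were DESeq2 1.42.0, its size factors in edgeR, no TMM, no filter, a minimum of 10 counts, limma 3.58.1 on log2(FPKM + 1) and log2(FPKM + 0.1) with a minimum of 1 FPKM in 2 libraries, log2(FPKM + 1) without it, the replicate number as a block, and each library left out; removal of a gene-length trend (loess, span 0.3) was added after seeing the data. The scripts were tested on simulated data. Near-identical transcripts were sought with blastn 2.17.0 in GENCODE M21 (at least 90% identity over 150 bases). Intervals and floors cover counting error and the spread of these libraries only. Depth was 55435063 to 75062945 counts per library.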

Additional observations from a re-analysis of the deposited data

How the results depend on the processing

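Psmd8 and Psmd10 kept their calls under all 14 alternatives. The count of 5 called genes was 6 with DESeq2's size factors or a minimum of 10 counts (Psma5 added), beside 21.1% and 21.8% of all genes tested. It was 4 with limma on log2(FPKM + 1), 3 on log2(FPKM + 0.1) and 2 on log2(FPKM + 1) without a filter, beside 19.4%, 19.3% and 7.04%. When a library was left out, the called genes varied and none was called lower, while each fit called a smaller share of all genes tested than the full fit. No TMM gave 4 genes called higher, without Psmb4, and 1 lower (Psme4). Psmb4 was also lost under the 3 limma settings, Psme2 under log2(FPKM + 0.1) and under log2(FPKM + 1) without a filter, and Psmb5 under the latter. Removal of the length trend gave 3 higher and 1 lower (Psmc1). Without TMM the medians were −0.041 for the ATPases, 0.046 for the activators and 0.0092 for the cap. With limma they were −0.040 and −0.041, 0.046 and 0.046, and 0.0079 and 0.0081, for the pseudocounts 1 (with or without the filter) and 0.1. These settings do not use TMM. The median over all genes each setting tested was −0.0046 in the main fit and −0.030 without TMM. With limma and the filter it was −0.028 and −0.032 for the pseudocounts 1 and 0.1, and without the filter −0.0082. The part of TMM in these shifts was not tested. With the length trend removed, the medians were −0.066 for the ATPases, 0.021 for the activators, 0.059 for the alpha ring, 0.053 for the beta ring, 0.053 for the core, −0.0036 for the cap and 0.021 for all genes of the group, where all genes tested had a median of −0.020. With a library left out, the medians ranged from 0.051 to 0.12 for all genes of the group, 0.084 to 0.18 for the alpha ring, 0.051 to 0.20 for the beta ring, 0.064 to 0.19 for the core, −0.032 to 0.0056 for the ATPases, 0.039 to 0.11 for the other cap subunits, 0.032 to 0.059 for the cap, 0.10 to 0.17 for the cap chaperones, 0.061 to 0.085 for the activators. The shares of Psmb6, Psmb7 and Psmb5 in their pairs then differed by −3.45 to −2.11, −0.645 to −0.292 and −3.63 to 0.0518 percentage points. Values near 0 changed sign in some cases. With a library left out, Psma8 ranged from −0.10 to 0.22 (below 0 without WT replicate 2 and, at −0.0065, without anti-Act1 replicate 1), Psmb1 from −0.0084 to 0.10 (below 0 without WT replicate 2), Psmc2 from −5.3e-06 to 0.071 and Psmd12 from −0.078 to 0.0042 (both changed sign without anti-Act1 replicate 1) and Psme3 from −0.0099 to 0.065 (below 0 without WT replicate 1). Psmb6 ranged from 0.064 to 0.20, Psmb7 from 0.015 to 0.10, Psmd9 from 0.047 to 0.16 and Psme1 from 0.075 to 0.15, with no change of sign. With the length trend removed, Psmb1 stood at −0.028, Psmb7 at −0.019 and Psmc2 at −0.0036. Samples with the same number did not deviate together (r = −0.030 over 12494 genes, which are not independent replicates), so the numbers do not pair the libraries. With the replicate block the count was 5, the same 5 genes. Leaving a group with 1 library assumes that it varies like the other group. With 2 libraries per group, an uncalled difference may still be of any size within its interval.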
